A study of Homo sapiens with 12 samples.

Results

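The responses of 2 genotypes of one breast cancer line to dexamethasone (Dex), a synthetic glucocorticoid, were compared gene by gene. MDA-MB-231 is a mesenchymal triple-negative line. The cells expressed a glucocorticoid receptor that was wild type (WT-GR) or had an alanine in place of the serine Ser134 (S134A-GR), and each genotype was sequenced after vehicle and after 1 µM Dex for 6 h, with 3 libraries in each of the 4 groups (12 libraries). All cells had first been kept for 18 h in IMEM with 1% DCC. For every gene the Dex response of WT-GR cells was subtracted from that of S134A-GR cells, so a positive difference is a larger, or less negative, response in S134A-GR cells. Of 19907 genes in the files, 15957 reached a value of 10 or more in 3 or more libraries and were compared. At that limit PSMB8 and SCARNA16 were just inside, with a third-highest value of 10.1, and SEMA3B-AS1 and TSPAN32 just outside, with 9.98.

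The labels do not say how the 2 lines were made, whether each is 1 clone, or whether replicate libraries stem from separate cultures. The p-values therefore rest on a spread between libraries that may be technical alone, and any property of the lines other than the receptor cannot be told apart from genotype. As a bulk measurement, fewer cells of a type and less RNA per cell cannot be told apart either.

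The glucocorticoid receptor, encoded by NR3C1, is a nuclear receptor held in the cytoplasm by chaperones until it binds hormone. It then enters the nucleus and raises or lowers transcription at the elements it binds, directly or with other factors. The serine lies in the amino-terminal part of the receptor and is known as a site that stress-activated p38 kinase phosphorylates, and an alanine there cannot be phosphorylated. In breast cells, well-known glucocorticoid-induced genes include FKBP5, TSC22D3 and PER1. The series title names PDK4, the kinase that switches off the pyruvate dehydrogenase complex, as a gene induced by the receptor phosphorylated there. The difference of responses addresses which genes answered Dex differently without that serine.

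Values are normalized read counts, and changes are log2 differences of value + 1, which understate changes of genes with low values. Recovered depth was 56.4 to 100.6 M reads (M, mega). WT-GR Dex libraries 2 and 3 stood apart from the others in genes with a single read. These numbered 193 and 210 there, and 352 to 409 in each of the remaining 10. Library 1 of that group held 56.9 M reads, close to the lowest depth. The library weights that limma fitted, lower where a library lay farther from its group, were 0.34, 0.91 and 0.23 for WT-GR Dex libraries 1, 2 and 3. The median SD of a gene between the 3 libraries was 0.15 on the log2 scale in the WT-GR Dex group, and 0.094 in its vehicle group, while S134A-GR cells had 0.091 with Dex and 0.065 in vehicle. The Dex files carry gene names shifted against their values, and each line therefore took the name that the vehicle files have on it, a repair on which each Dex result rests. Mesenchymal markers of the line were present in all 12 libraries, with VIM at 366469 to 431198 and CD44 at 28862 to 44619. ESR1 stayed at or below 5.66 and CDH1 at or below 17.1, while ERBB2 (8864 to 12005), KRT8, GATA3 and EPCAM were not low.

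The limma test called 66 of 15957 genes for the difference of responses at a Benjamini-Hochberg adjusted p under 0.05 (0.414% of genes tested). The response was larger in S134A-GR cells in 38 of them and smaller, or more negative, in 28. Both words refer to the response to Dex, not to the level of the gene. For comparison, Dex itself changed 4455 genes of WT-GR cells (27.9%; 13.9% rose and 14% fell) and 2513 genes of S134A-GR cells (15.7%; 7.99% rose and 7.76% fell). Both counts share libraries with the difference, and a count that is smaller in one genotype is not itself a test between them. Among the 66 genes the difference was at least 2-fold in 13, its median size was 0.59 and the smallest was 0.32. Across all genes tested the median 95% interval reached 0.27 to either side of the estimate, and 2790 genes (17.5%) had an unadjusted p under 0.05.

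The count of called genes depended on WT-GR Dex library 3. Without it 1604 genes were called (10.1% of genes tested), and all 66 genes remained called in the same direction. Leaving out both WT-GR Dex libraries 2 and 3 leaves only library 1 in that group, itself of low depth and low library weight. For that fit only sizes are given, here and for single genes below. None of the 66 genes changed direction in it. Their differences moved by a median of 0.040 without library 3 (at most 0.13) and of 0.082 without both (at most 0.19). Leaving out each of the other 11 libraries gave 26 to 69 called genes.

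**Figure D1:**
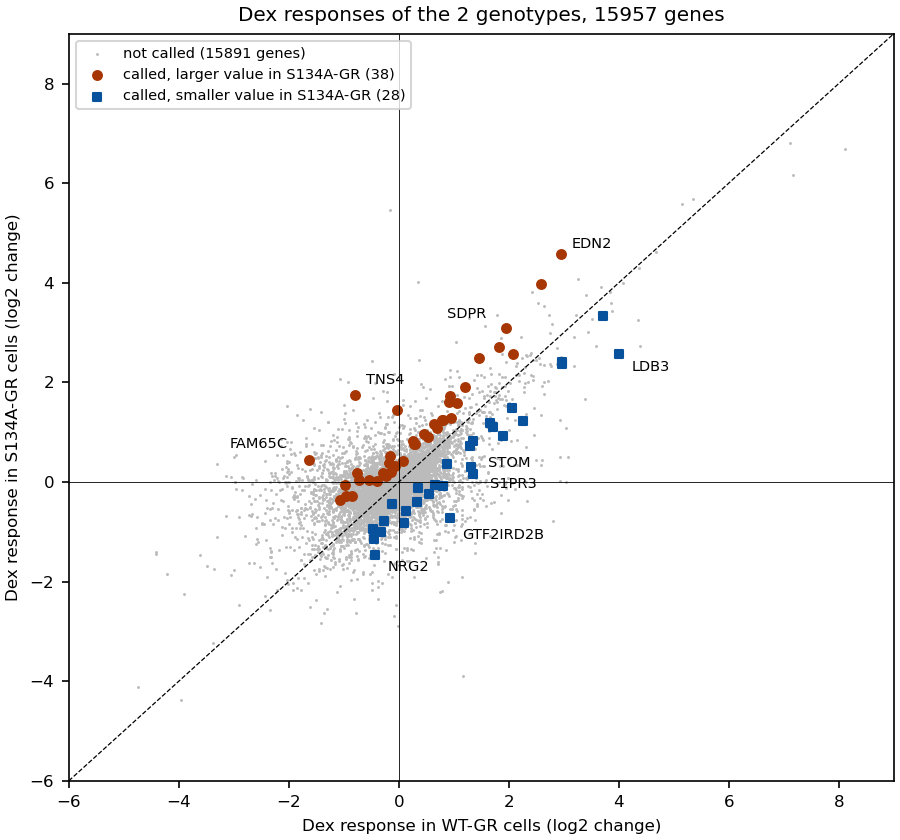
Each point is 1 of 15957 genes, with its Dex response in WT-GR cells on the horizontal axis and in S134A-GR cells on the vertical axis (log2 change). Orange circles are the 38 genes called with a larger response in S134A-GR cells and blue squares the 28 called with a smaller one. On the dashed line both responses are equal, and the called genes lie on both sides of it.

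The 66 genes fell into several patterns by the call within each genotype. The commonest was a rise in both genotypes, larger in S134A-GR cells for 20 genes and smaller for 13. Dex moved 6 genes in opposite directions, up in one genotype and down in the other. In 8 genes only the fall in WT-GR cells was called, and in 4 only the rise there. In S134A-GR cells alone, 4 rises and 2 falls were called. The remaining 9 genes fell in both, 3 of them less and 6 of them more in S134A-GR cells.

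Levels before treatment also differed. In vehicle, S134A-GR cells were called lower than WT-GR cells in 25 of the 38 genes with a larger response and higher in 3 (background: 26.7% of genes tested lower and 23.8% higher). Of the 28 genes with a smaller response, 4 were called lower in vehicle and 11 higher. With Dex, 13 of those 28 were lower in S134A-GR cells after a vehicle level that was not called different, among them FKBP5, GLUL, FBXO32, STOM and LDB3. Of all genes tested 6.27% were in that class (in Dex 26.3% were lower and 23.4% higher whatever the vehicle call). Conversely, 10 of the 38 were higher with Dex after a vehicle level not called different, among them DKK1, FGD4, SLC20A1 and ENAH (6.56% of all genes tested). In 8 genes S134A-GR cells were lower in vehicle and higher with Dex: CCDC138, CCNE2, LOX, LYPD6, SAMD9L, ST3GAL1, SLC35D1 and UST (0.0752% of all genes tested). The difference of responses equals the gap between genotypes with Dex minus that in vehicle, so nothing is read from these shares, and the part that a low or high vehicle value plays in it was not tested.

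**Figure D2:**
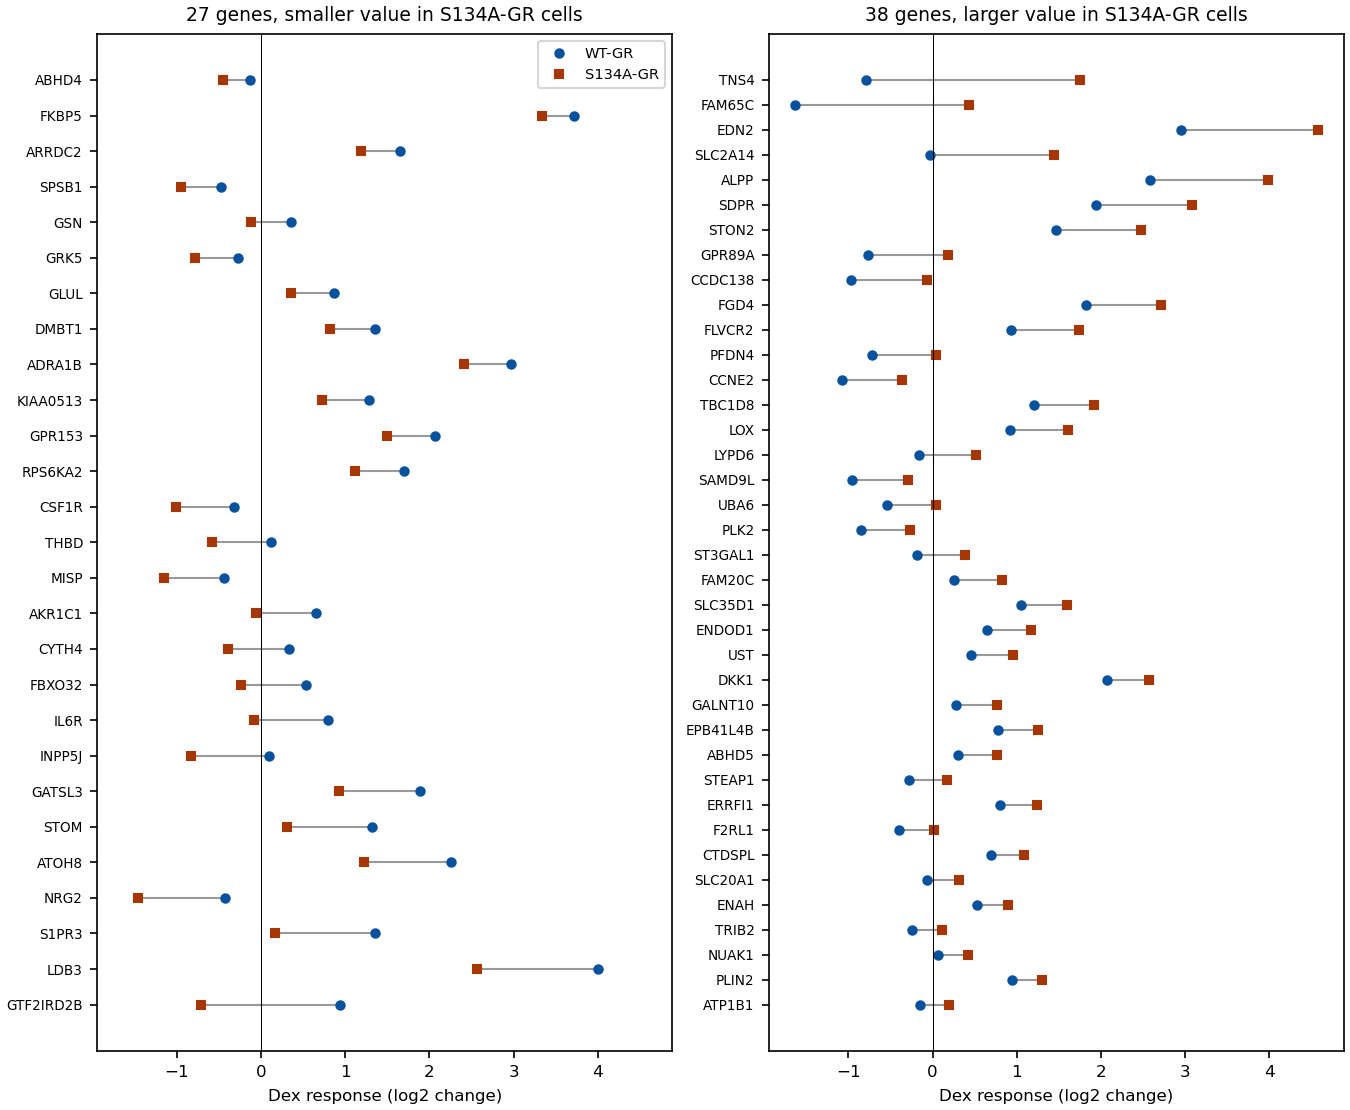
Dex response (log2 change, horizontal axis) of 65 of the 66 called genes in WT-GR cells (blue circles) and S134A-GR cells (orange squares), with a grey line joining the 2 values of a gene. The left panel holds 27 genes with a smaller response in S134A-GR cells and the right panel the 38 with a larger one. Lines that cross 0 belong to genes whose estimates have opposite signs.

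Genes that moved in opposite directions came first. TNS4 encodes tensin 4, an adaptor of focal adhesions (chr17:40475834-40501623). Its normalized read counts in WT-GR cells were 5080.4, 4986 and 4863 in vehicle and 3046, 2741 and 2827 with Dex. In S134A-GR cells they were 238, 200.7 and 162 in vehicle and 653, 648 and 710.1 with Dex. No 2 groups overlapped, and the Dex libraries were the lower ones in WT-GR cells and the higher ones in S134A-GR cells, at far lower levels throughout. The WT-GR mean fell to 0.577 of its vehicle level and the S134A-GR mean rose 3.35-fold. For TNS4 the difference was 2.55 ± 0.15 (SE; limma adjusted p = 4.53e-06), and 2.46 without WT-GR Dex libraries 2 and 3.

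GTF2IRD2B (chr7:75092556-75149817), which belongs to the GTF2I transcription factor family, went the other way. Its WT-GR counts were 148, 190.2 and 198 in vehicle and 386, 359 and 283 with Dex. In S134A-GR cells it read 262, 315 and 386 in vehicle and 166, 189 and 227 with Dex. Dex libraries were all above vehicle in WT-GR cells and all below it in S134A-GR cells. For GTF2IRD2B the difference was -1.65 ± 0.26 (SE; limma adjusted p = 0.013), and -1.83 without WT-GR Dex libraries 2 and 3. The near-identical copy GTF2IRD2 gave -0.35 (limma adjusted p = 0.59) at a mean count of 63.6, so the assignment of reads between the copies is uncertain.

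FBXO32 encodes atrogin-1, an F-box subunit of a ubiquitin ligase that is induced in wasting muscle (chr8:123497889-123541206). Its counts in WT-GR cells were 3968, 4194 and 4071 in vehicle and 5723, 5719.7 and 6369 with Dex. In S134A-GR cells they were 4360.3, 4054 and 4078 in vehicle and 3562, 3396 and 3628 with Dex. Vehicle levels of the genotypes overlapped, whereas all WT-GR Dex libraries exceeded all S134A-GR Dex libraries. The mean rose 1.46-fold in WT-GR cells and fell to 0.847 of vehicle in S134A-GR cells, a difference of -0.78 ± 0.08 (SE; limma adjusted p = 0.000431). CYTH4, a cytohesin that activates ARF GTPases (chr22:37282508-37315341), had the same shape at lower counts. It read 749.5, 728 and 649 in vehicle and 982, 878 and 821 with Dex in WT-GR cells. Its S134A-GR counts were 755, 725 and 758 in vehicle and 592, 585 and 528 with Dex. The groups overlapped in vehicle and not with Dex, and the difference of CYTH4 was -0.73 ± 0.13 (SE; limma adjusted p = 0.0253).

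The other two were chosen for description after their values were seen. ST3GAL1, a sialyltransferase of O-linked glycans, read 6998, 6964 and 6548 in vehicle and 6029.8, 5866 and 6127 with Dex in WT-GR cells. Its S134A-GR counts were 5734, 5893 and 6127 in vehicle and 8032, 7588 and 7574 with Dex. S134A-GR cells were the lower genotype in vehicle and the higher one with Dex. For ST3GAL1 the difference was 0.57 ± 0.06 (SE; limma adjusted p = 0.00119). ATP1B1, the beta subunit of the sodium pump, had WT-GR counts of 4588, 4821 and 4775 in vehicle and 4075, 4431 and 4279 with Dex. In S134A-GR cells its counts were 4432, 4465 and 4519 in vehicle and 5178, 5081 and 5147 with Dex. Both changes were small, -0.15 with WT-GR and 0.20 with S134A-GR on the log2 scale, and their difference was 0.35 ± 0.06 (SE; limma adjusted p = 0.028).

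**Figure D3:**
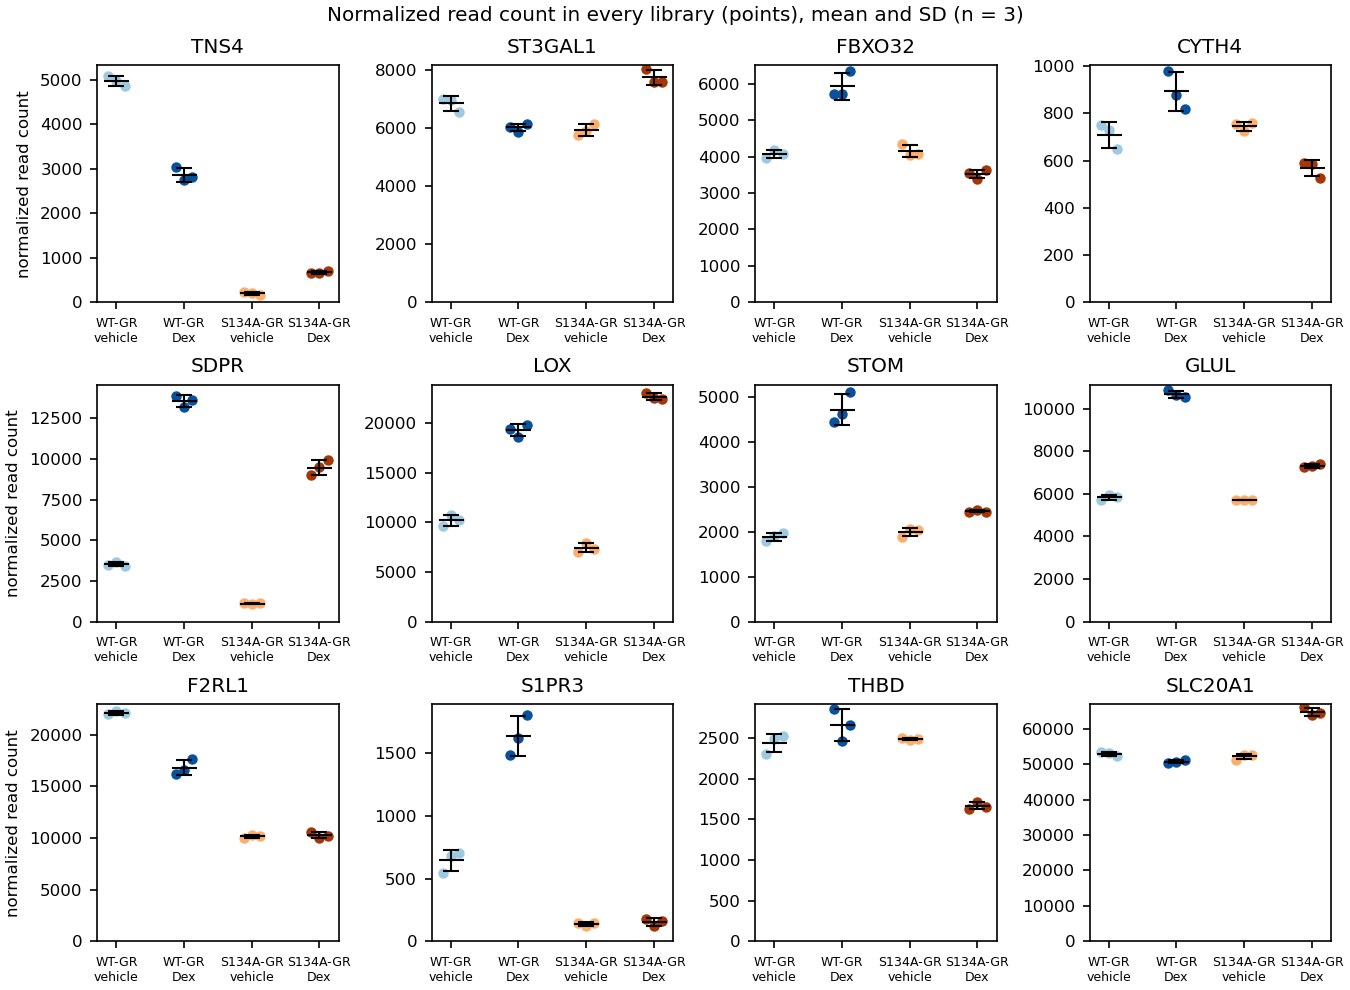
Normalized read counts (vertical axis, linear, from 0) of 12 genes in every library, by genotype and treatment; points are libraries, and bars give the mean and SD of 3. In FBXO32, STOM, GLUL and THBD the vehicle groups of the genotypes are close and the Dex groups lie apart, whereas TNS4, SDPR, F2RL1 and S1PR3 already differ in vehicle.

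Larger rises in S134A-GR cells were led by EDN2, which encodes the vasoactive peptide endothelin-2 (chr1:41478775-41484683). In WT-GR cells EDN2 read 184, 159.6 and 185 in vehicle and 1497, 1415 and 1200.1 with Dex. In S134A-GR cells it read 46.2, 30.4 and 41.0 in vehicle and 909, 969 and 952 with Dex. All S134A-GR libraries lay below the WT-GR libraries of the same treatment, by a wider ratio in vehicle. The mean rose 7.77-fold in WT-GR and 24.1-fold in S134A-GR cells, and the difference was 1.63 ± 0.21 (SE; limma adjusted p = 0.00309). ALPP, placental alkaline phosphatase and a long-known glucocorticoid-induced enzyme (chr2:232378751-232382889), read 632, 731 and 602 in vehicle and 4212, 3739 and 3777 with Dex in WT-GR cells. Its counts in S134A-GR cells were 119, 89.2 and 138 in vehicle and 1616, 1902 and 1929.8 with Dex. It too was lower in S134A-GR cells under both treatments, and its 15.7-fold rise there against 5.97-fold in WT-GR cells gave a difference of 1.41 ± 0.19 (SE; limma adjusted p = 0.00599). Its near-identical copy ALPPL2 had a difference of 1.56 at a mean count of 21.8 and was not called (limma adjusted p = 0.32).

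SDPR, also named CAVIN2, is a cavin that coats caveolae (chr2:191834310-191847088). WT-GR counts of SDPR were 3492, 3669 and 3433 in vehicle and 13868, 13186 and 13648 with Dex. S134A-GR counts were 1124, 1067 and 1156 in vehicle and 9012, 9479 and 9908 with Dex. No groups overlapped. The rise was 3.84-fold in WT-GR and 8.48-fold in S134A-GR cells, and for SDPR the difference was 1.14 ± 0.07 (SE; limma adjusted p = 4.53e-06). EDN2, ALPP and SDPR, with ERRFI1, were larger in S134A-GR cells only as a ratio to vehicle. Counted in added reads, each gained more in WT-GR cells: SDPR gained 10036 there and 8350 in S134A-GR cells.

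LOX encodes lysyl oxidase, which cross-links collagen and elastin (chr5:122063195-122078259). In WT-GR cells LOX read 9638, 10744 and 10194 in vehicle and 19382, 18568 and 19768 with Dex. In S134A-GR cells it read 7016, 7928 and 7326 in vehicle and 23028, 22470.2 and 22401 with Dex. S134A-GR libraries were all lower in vehicle and all higher with Dex, so LOX gained more by ratio (3.05-fold against 1.89-fold) and in added reads. For LOX the difference was 0.69 ± 0.07 (SE; limma adjusted p = 0.000677). TBC1D8, of a family of Rab GTPase-activating proteins (chr2:101007228-101151382), read 6009, 6329.6 and 6485 in vehicle and 13690.0, 15231 and 14509.9 with Dex in WT-GR cells. S134A-GR libraries of TBC1D8 read 3523, 3521 and 3669 in vehicle and 13547, 13256 and 13607 with Dex. The genotypes were far apart in vehicle and close with Dex, and the difference was 0.71 ± 0.07 (SE; limma adjusted p = 0.000315).

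FGD4 encodes frabin, an exchange factor for the GTPase CDC42 that binds actin (chr12:32399558-32646050). FGD4 read 316, 266 and 234 in vehicle and 999, 848 and 1034 with Dex in WT-GR cells. With S134A-GR, the counts were 294, 346 and 296 in vehicle and 2210.5, 2013 and 1941 with Dex. Vehicle groups overlapped, and with Dex the nearest libraries of the genotypes were 907 counts apart, S134A-GR above WT-GR. For FGD4 the difference was 0.90 ± 0.17 (SE; limma adjusted p = 0.0361). FLVCR2, a membrane transporter related to a haem exporter (chr14:75578620-75648167), read 196, 213 and 221 in vehicle and 386, 452 and 370.2 with Dex in WT-GR cells. The S134A-GR counts of FLVCR2 were 304, 296 and 285 in vehicle and 1051, 935 and 968 with Dex. S134A-GR cells were higher under both treatments, and the difference was 0.80 ± 0.15 (SE; limma adjusted p = 0.0299). STON2, the endocytic adaptor stonin 2 (chr14:81260652-81436465), read 236, 280.1 and 202 in vehicle and 582, 649 and 752 with Dex in WT-GR cells. S134A-GR libraries held 122, 128 and 154 in vehicle and 781, 725 and 749 with Dex. The Dex groups overlapped and the vehicle groups did not, and for STON2 the difference was 1.02 ± 0.20 (SE; limma adjusted p = 0.0445).

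DKK1, a secreted inhibitor of Wnt signalling, and ERRFI1, a feedback inhibitor of the EGF receptor, were chosen for description after their values were seen. DKK1 read 5261, 5147 and 5336 in vehicle and 22351, 22938 and 21038 with Dex in WT-GR cells. With S134A-GR, DKK1 read 5363, 5244 and 5566 in vehicle and 31177, 32318 and 32425 with Dex. The genotypes overlapped in vehicle and stood 8239.5 counts apart with Dex at their nearest libraries, and the difference was 0.49 ± 0.06 (SE; limma adjusted p = 0.00244). ERRFI1 had WT-GR counts of 76955, 82918 and 81721 in vehicle and 136784, 136766 and 148459 with Dex. ERRFI1 counts in S134A-GR cells were 31940.4, 33361 and 33009 in vehicle and 81322, 74939.5 and 75946 with Dex. Its difference was 0.43 ± 0.07 (SE; limma adjusted p = 0.013), from levels that were lower in S134A-GR cells under both treatments.

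The other 10 genes with a larger rise in S134A-GR cells are given with their differences only. They were FAM20C (0.56), a Golgi kinase of secreted proteins, SLC35D1 (0.54), a nucleotide sugar transporter, UST (0.50), a uronyl sulfotransferase, and GALNT10 (0.49), which starts O-linked glycans. ABHD5 (0.47), a coactivator of triglyceride lipase, and PLIN2 (0.35), a lipid droplet coat protein, were also among them. The remainder were ENDOD1 (0.52), EPB41L4B (0.47), CTDSPL (0.39) and ENAH (0.37), the last a promoter of actin filament growth.

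Rises called in S134A-GR cells only were led by SLC2A14, a glucose transporter (chr12:7812514-7891196). SLC2A14 read 84.7, 115 and 99.0 in vehicle and 111, 102 and 80.3 with Dex in WT-GR cells. S134A-GR libraries of SLC2A14 held 96.1, 68.9 and 83.7 in vehicle and 227, 221 and 228 with Dex. The 3 S134A-GR Dex libraries stood above the other 9. For SLC2A14 the difference was 1.47 ± 0.26 (SE; limma adjusted p = 0.0256), and 1.28 without WT-GR Dex libraries 2 and 3. SLC2A3, its near-identical and far more abundant copy, gave 0.14 (limma adjusted p = 0.34), so reads could have been split between the pair. SLC20A1, a phosphate importer chosen after its values were seen, read 53394, 53213 and 52244 in vehicle and 50290.5, 50666 and 51238 with Dex in WT-GR cells. Its S134A-GR counts were 51350.5, 52753 and 52672 in vehicle and 66182, 63951 and 64513 with Dex. The S134A-GR Dex libraries stood above the other 9, 1.24-fold over vehicle, and the difference of 0.37 had an SE of 0.048. LYPD6 (0.68), an enhancer of Wnt signalling, and NUAK1 (0.35), a kinase related to AMPK, had the same pattern of calls.

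Falls in WT-GR cells that were absent from the calls in S134A-GR cells were led by FAM65C, also named RIPOR3 (chr20:50586108-50691542). In WT-GR cells FAM65C read 489, 482 and 566 in vehicle and 152, 151 and 193 with Dex. In S134A-GR cells it read 23.6, 14.2 and 14.3 in vehicle and 21.1, 20.1 and 29.2 with Dex. The S134A-GR libraries were close to the minimum value throughout and overlapped between treatments. For FAM65C the difference was 2.07 ± 0.33 (SE; limma adjusted p = 0.0144), and its S134A-GR response rests on few reads. GPR89A, a Golgi pH regulator (chr1:145607988-145670650), read 1087, 839 and 786 in vehicle and 601, 498 and 486 with Dex in WT-GR cells. GPR89A counts in S134A-GR cells were 753, 812 and 797 in vehicle and 812, 987 and 881 with Dex. Vehicle groups overlapped and Dex groups did not. The difference of GPR89A was 0.94 ± 0.17 (SE; limma adjusted p = 0.033), whereas its near-identical copy GPR89B gave -0.97 (limma adjusted p = 0.28), so how reads were shared between the pair is uncertain.

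CCDC138, a coiled-coil protein gene (chr2:108786750-108885485), read 599.6, 628 and 591 in vehicle and 278, 298 and 353 with Dex in WT-GR cells. Its S134A-GR libraries read 389, 460.2 and 376 in vehicle and 445, 351 and 375 with Dex. S134A-GR groups overlapped each other, and the difference was 0.90 ± 0.17 (SE; limma adjusted p = 0.0412). PFDN4 encodes a subunit of the prefoldin chaperone (chr20:54208087-54219961). PFDN4 counts were 2922, 3038 and 2891 in vehicle and 1560.4, 1805 and 2023 with Dex in WT-GR cells. S134A-GR counts of PFDN4 were 1984, 1988 and 1831 in vehicle and 2276, 1868 and 1870.5 with Dex. WT-GR cells started higher and reached, with Dex, the range of S134A-GR cells. For PFDN4 the difference was 0.77 ± 0.13 (SE; limma adjusted p = 0.0253), and 0.96 without WT-GR Dex libraries 2 and 3. That was the largest shift among the 66 genes.

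F2RL1, the protease-activated receptor PAR2, was chosen after its values were seen. It read 21987, 22333 and 22086 in vehicle and 16212, 16589 and 17656 with Dex in WT-GR cells. With S134A-GR, F2RL1 read 9988, 10281 and 10182 in vehicle and 10595, 10009.9 and 10155 with Dex. The WT-GR mean fell to 0.76 of vehicle while the S134A-GR groups overlapped, and the difference was 0.41 ± 0.06 (SE; limma adjusted p = 0.00635). The others of this pattern were UBA6 (0.58), a ubiquitin-activating enzyme, STEAP1 (0.45), a membrane protein of the metalloreductase family, and TRIB2 (0.36), a pseudokinase.

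Falls in both genotypes that were smaller in S134A-GR cells included CCNE2, cyclin E2, which drives entry into S phase (chr8:94880224-94896693). CCNE2 read 2333, 2401 and 2141 in vehicle and 994, 1036 and 1255 with Dex in WT-GR cells. CCNE2 counts of S134A-GR cells were 1854, 1881 and 1865 in vehicle and 1667, 1398 and 1319.5 with Dex. All Dex libraries lay below vehicle in each genotype. The WT-GR mean fell to 0.478 of vehicle and the S134A-GR mean to 0.783, a difference of 0.71 ± 0.14 (SE; limma adjusted p = 0.0445). SAMD9L (0.67), a restriction factor for viruses and cell growth, and PLK2 (0.57), a polo-like kinase, were the others.

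Smaller rises in S134A-GR cells were led by LDB3, a PDZ and LIM protein of muscle Z-discs (chr10:86666788-86736072). LDB3 read 48.9, 34.9 and 34.7 in vehicle and 613, 636 and 682 with Dex in WT-GR cells. With S134A-GR, LDB3 read 48.1, 61.8 and 41.0 in vehicle and 294, 314 and 290.1 with Dex. Vehicle groups overlapped at low counts, and the nearest Dex libraries of the genotypes were 299 counts apart. The mean rose 16.3-fold in WT-GR and 5.95-fold in S134A-GR cells. For LDB3 the difference was -1.44 ± 0.25 (SE; limma adjusted p = 0.0256).

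STOM encodes stomatin, a membrane scaffold protein (chr9:121338987-121370250). Its WT-GR counts were 1794, 1913 and 1969 in vehicle and 4439, 4606 and 5099 with Dex. Its S134A-GR counts were 1886, 2058 and 2027 in vehicle and 2445, 2481 and 2447 with Dex. Vehicle groups overlapped, and the nearest Dex libraries of the genotypes were 1958 counts apart, WT-GR above S134A-GR. The rise was 2.49-fold in WT-GR and 1.23-fold in S134A-GR cells, and the difference was -1.01 ± 0.09 (SE; limma adjusted p = 0.000158). GATSL3, also named CASTOR1, is an arginine sensor that inhibits mTORC1 (chr22:30285117-30289505). GATSL3 read 574, 654 and 738 in vehicle and 2685, 2304 and 2284 with Dex in WT-GR cells. S134A-GR counts of GATSL3 were 632, 684 and 610.3 in vehicle and 1175, 1249.7 and 1249.8 with Dex. The genotypes overlapped in vehicle only, and the difference was -0.96 ± 0.14 (SE; limma adjusted p = 0.00635). ATOH8, a basic helix-loop-helix transcription factor (chr2:85753991-85791383), read 168, 157 and 225 in vehicle and 886, 954 and 771 with Dex in WT-GR cells. With S134A-GR, ATOH8 read 303, 318 and 298 in vehicle and 673, 796 and 693 with Dex. Here S134A-GR cells started higher and the Dex groups overlapped. For ATOH8 the difference was -1.02 ± 0.19 (SE; limma adjusted p = 0.033).

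GLUL and FKBP5 were chosen after their values were seen. GLUL encodes glutamine synthetase. GLUL counts in WT-GR cells were 5708, 5954 and 5864 in vehicle and 10866, 10651 and 10536 with Dex. GLUL counts in S134A-GR cells were 5714, 5691 and 5729 in vehicle and 7248, 7302 and 7409 with Dex. Vehicle groups overlapped, the Dex groups were 3128 counts apart at their nearest libraries, and the difference was -0.51 ± 0.05 (SE; limma adjusted p = 0.000499).

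FKBP5 encodes a cochaperone that lowers the hormone affinity of the receptor. FKBP5 read 4106, 3850.2 and 3785 in vehicle and 49104, 50605 and 54595 with Dex in WT-GR cells. S134A-GR libraries of FKBP5 read 3766, 3762 and 3732 in vehicle and 37722, 37845 and 37962 with Dex. Its rise was large in both genotypes, 13.1-fold and 10.1-fold, and the difference was -0.38 ± 0.06 (SE; limma adjusted p = 0.023). A further 6 genes with a smaller rise, by difference only, were ARRDC2 (-0.46), DMBT1 (-0.54), the adrenergic receptor ADRA1B (-0.55), KIAA0513 (-0.56), the orphan receptor GPR153 (-0.57) and the ribosomal S6 kinase RPS6KA2 (-0.59). DMBT1 and GPR153 gained more reads in S134A-GR cells although their ratio to vehicle was smaller there.

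Rises called in WT-GR cells only were led by S1PR3, a receptor for sphingosine 1-phosphate (chr9:88990863-89005155). S1PR3 read 546, 681 and 707 in vehicle and 1484, 1622 and 1807 with Dex in WT-GR cells. With S134A-GR, S1PR3 read 143, 118 and 143 in vehicle and 179, 121 and 159 with Dex. S134A-GR cells were lower in every library, with overlapping treatments. For S1PR3 the difference was -1.18 ± 0.22 (SE; limma adjusted p = 0.0328), and -1.04 without WT-GR Dex libraries 2 and 3. IL6R, the receptor subunit that binds interleukin-6 (chr1:154405343-154469450), read 321, 387 and 363 in vehicle and 632, 602 and 631 with Dex in WT-GR cells. Its counts in S134A-GR cells were 575, 501 and 505 in vehicle and 548, 445 and 499 with Dex. WT-GR cells were the lower genotype in vehicle and the higher one with Dex, and the difference was -0.89 ± 0.15 (SE; limma adjusted p = 0.022).

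AKR1C1, an aldo-keto reductase of steroid metabolism (chr10:4963415-4983283), read 166, 173 and 163 in vehicle and 273, 256 and 262 with Dex in WT-GR cells. AKR1C1 counts in S134A-GR cells were 844, 865 and 851 in vehicle and 833, 759.6 and 858 with Dex. S134A-GR cells were higher in every library and their treatments overlapped. For AKR1C1 the difference was -0.72 ± 0.12 (SE; limma adjusted p = 0.0243), and its near-identical copy AKR1C2 gave -0.44 (limma adjusted p = 0.66). GSN encodes gelsolin, which severs and caps actin filaments, and was chosen after its values were seen because it neighbours STOM. GSN read 7156, 7613 and 7574 in vehicle and 10241, 9424 and 8984 with Dex in WT-GR cells. With S134A-GR, GSN read 6038, 6691 and 6129 in vehicle and 5461, 5927 and 5935 with Dex. All Dex libraries were above vehicle in WT-GR cells and below it in S134A-GR cells, where the change of -0.12 was not called (limma adjusted p = 0.22). For GSN the difference was -0.48 ± 0.08 (SE; limma adjusted p = 0.0256).

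Falls called in S134A-GR cells only belonged to THBD and INPP5J. THBD encodes thrombomodulin, a cofactor of anticoagulant protein C activation (chr20:23045633-23049672). THBD read 2307, 2480.5 and 2521 in vehicle and 2849, 2457 and 2659.5 with Dex in WT-GR cells. With S134A-GR, THBD read 2495, 2473 and 2492 in vehicle and 1625, 1711 and 1654 with Dex. The S134A-GR Dex libraries were below the other 9, at 0.669 of vehicle, and the difference was -0.70 ± 0.09 (SE; limma adjusted p = 0.00244). INPP5J, a phosphoinositide phosphatase (chr22:31122614-31134697), read 218, 223 and 238 in vehicle and 244, 225 and 256 with Dex in WT-GR cells. INPP5J counts in S134A-GR cells were 428, 339.6 and 381 in vehicle and 219, 206 and 219 with Dex. S134A-GR cells were higher in vehicle and just below WT-GR cells with Dex, and the difference was -0.92 ± 0.16 (SE; limma adjusted p = 0.0267).

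Larger falls in S134A-GR cells included NRG2, a neuregulin that activates ERBB receptors (chr5:139846781-140043299). NRG2 read 406, 388 and 412 in vehicle and 319, 289 and 289 with Dex in WT-GR cells. NRG2 counts in S134A-GR cells were 545, 468 and 578 in vehicle and 184, 219.7 and 174 with Dex. S134A-GR cells were the higher genotype in vehicle and the lower one with Dex. For NRG2 the difference was -1.03 ± 0.17 (SE; limma adjusted p = 0.0158). CSF1R, the receptor of macrophage colony-stimulating factor (chr5:150053295-150113365), read 935, 961 and 959 in vehicle and 823, 686 and 777 with Dex in WT-GR cells. Its S134A-GR counts were 951, 867 and 833 in vehicle and 429, 458 and 432 with Dex. The genotypes overlapped in vehicle only, and the mean fell to 0.801 of vehicle with WT-GR and 0.498 with S134A-GR. For CSF1R the difference was -0.68 ± 0.12 (SE; limma adjusted p = 0.0256). The blood cell marker PTPRC was at most 18.3 in every library, and CD3E and HBB had no values. Markers of other cell types were mixed. PECAM1 (endothelial) read 1079 to 2780 and COL1A1 (fibroblast) 814 to 2370, while the fibroblast marker PDGFRA was at most 18.0. Whether other cells were present was not tested.

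MISP, an actin-binding protein that positions the mitotic spindle (chr19:748438-764318), read 1621, 1574 and 1673 in vehicle and 1294, 1153 and 1134 with Dex in WT-GR cells. S134A-GR counts of MISP were 909.6, 866 and 857 in vehicle and 366, 384 and 439 with Dex. No groups overlapped, and the difference was -0.70 ± 0.12 (SE; limma adjusted p = 0.0216). The other genes of this pattern, by difference only, were ABHD4 (-0.32), a lysophospholipase, SPSB1 (-0.48), a SOCS-box protein, and GRK5 (-0.51), a kinase of G protein-coupled receptors.

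PDK4 and the receptor gene itself were not called for the difference of responses. PDK4 (chr7:95583499-95596516) read 813, 750.4 and 725 in vehicle and 3488, 3664 and 3961 with Dex in WT-GR cells. With S134A-GR, PDK4 read 449, 538 and 488 in vehicle and 2218, 2157 and 2322 with Dex. S134A-GR libraries were below WT-GR libraries under both treatments, and Dex libraries were above vehicle in both genotypes. The mean rose 4.86-fold in WT-GR and 4.54-fold in S134A-GR cells. For PDK4 the difference was -0.09 ± 0.11 (SE; limma adjusted p = 0.683) with a 95% interval of -0.34 to 0.15, and leaving out each library gave -0.16 to -0.03. Between genotypes the log2 difference of PDK4 was -0.64 in vehicle and -0.73 with Dex. NR3C1 (chr5:143277931-143435512) read 12729, 12139 and 10444 in vehicle and 9214, 8707 and 10246 with Dex in WT-GR cells. NR3C1 counts in S134A-GR cells were 8516, 8971 and 8959 in vehicle and 8354, 7529 and 7469 with Dex. Its fall of -0.32 was called in WT-GR cells and the change of -0.18 in S134A-GR cells was not. For NR3C1 the difference was 0.14 ± 0.11 (SE; limma adjusted p = 0.497), with a 95% interval of -0.09 to 0.38. Between genotypes the log2 difference of NR3C1 was -0.41 in vehicle and -0.27 with Dex (limma adjusted p = 0.000518 and 0.0099). All S134A-GR libraries lay below the WT-GR libraries of the same treatment, and what this lower level does to the responses was not tested. These reads do not show which NR3C1 allele they come from, so they do not check the genotype labels.

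Promoter sequence was read for the genes whose transcripts start in the RefSeq table (GRCh38.p14), in windows from 250 bases before to 50 after the start site. The table held 53 of the 66 called genes and 12057 of the genes tested. The palindromic receptor element was searched as GNACA, any 3 bases, then TGTNC, and the shorter motifs AGAACA and TGTTCT were searched on both strands. The palindrome was in 0 of 53 called promoters, in 28 of 12057 tested ones (0.232%) and in 0.388% of all 27305. A short motif was in 5 of 53 (9.43%), namely FKBP5, GATSL3, IL6R, LOX and SAMD9L, in 9.11% of tested and in 14.9% of all promoters. The share among called genes was thus close to that of the genes tested. The 250 bases before the start are shown for LOX and SDPR, which rose more in S134A-GR cells, and for STOM and IL6R, which responded less there, on the gene's strand with a short motif in capitals:
LOX: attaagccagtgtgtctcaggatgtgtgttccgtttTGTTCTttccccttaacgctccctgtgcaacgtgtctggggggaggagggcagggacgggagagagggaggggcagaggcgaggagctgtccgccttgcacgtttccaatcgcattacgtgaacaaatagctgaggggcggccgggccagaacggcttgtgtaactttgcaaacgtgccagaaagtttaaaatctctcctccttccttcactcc
IL6R: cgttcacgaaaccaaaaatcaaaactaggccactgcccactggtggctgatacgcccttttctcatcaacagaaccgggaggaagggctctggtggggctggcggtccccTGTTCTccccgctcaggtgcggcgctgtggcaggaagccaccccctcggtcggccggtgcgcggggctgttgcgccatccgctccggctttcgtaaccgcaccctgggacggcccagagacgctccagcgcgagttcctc
SDPR: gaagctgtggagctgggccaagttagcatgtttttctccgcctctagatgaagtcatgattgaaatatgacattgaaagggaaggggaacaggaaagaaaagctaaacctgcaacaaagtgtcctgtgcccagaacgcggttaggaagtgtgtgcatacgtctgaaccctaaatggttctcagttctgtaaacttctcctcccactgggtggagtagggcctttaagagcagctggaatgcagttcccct
STOM: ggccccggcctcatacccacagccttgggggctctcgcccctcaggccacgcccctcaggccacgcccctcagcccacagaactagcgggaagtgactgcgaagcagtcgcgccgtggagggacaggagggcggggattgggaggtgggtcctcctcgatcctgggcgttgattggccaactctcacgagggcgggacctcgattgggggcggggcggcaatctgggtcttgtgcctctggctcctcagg
They lie at chr5:122078260-122078509 (minus strand), chr1:154405093-154405342 (plus), chr2:191847089-191847338 (minus) and chr9:121370251-121370500 (minus). Counted from the start site, the motif begins at -214 in LOX and -140 in IL6R, and none lies in these windows of SDPR and STOM. A match is a description of these letters, not of binding.

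Position and overlap with other genes were checked for all 66. GSN and STOM are neighbours on chromosome 9, 6.1 kb apart, and both had smaller responses in S134A-GR cells. GATSL3 and INPP5J lie 833.1 kb apart on chromosome 22. In 12 instances a called gene shares bases with another tested gene, and of those other genes 0 were called by limma, edgeR or DESeq2 and 3 had an unadjusted limma p under 0.05. Over all genes tested limma called 0.414% and DESeq2 3.15%, and 17.5% had an unadjusted limma p under 0.05. With so few genes nothing is read from these counts. LOX overlaps SRFBP1 (0.38, limma adjusted p = 0.198), for example, and GSN overlaps RAB14 (0.15, limma adjusted p = 0.284). Without WT-GR Dex library 3, SRFBP1 and MIER1, which overlaps SLC35D1, were called (limma adjusted p = 0.0378 and 0.0432). Without strand, reads of overlapping genes cannot be told apart.

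Gene lists show how the difference is spread over pathways. The lists were made with earlier results of these data known, so they describe, and their counts are read beside the 0.414% of all genes and the median difference of all genes, which was 0.00. Over all genes DESeq2 called 3.15% for the difference, 17.5% had an unadjusted limma p under 0.05, and 10.1% were called by limma without WT-GR Dex library 3. Among the list extremes named below, DESeq2 gave no adjusted p for CDKN1C, ITGB6, SGPP2, ERBB4, BMP6, YWHAE, EGR3, RSAD2 and TNFSF10. It could therefore not call them. Each of the 18 lists had more called members without that library, from 1 to 16 in a list. Glucocorticoid-induced genes had 41 tested members. With WT-GR 33 of them rose and 2 fell, with S134A-GR 30 rose and 3 fell (over all genes 13.9% rose and 14% fell with WT-GR, and 7.99% and 7.76% with S134A-GR), and medians were 1.11 for the WT-GR response, 1.19 for the S134A-GR response and -0.17 for the difference. Called for the difference were ERRFI1 and ALPP with larger responses in S134A-GR cells and FKBP5, GLUL, THBD and FBXO32 with smaller ones. Without WT-GR Dex library 3 there were 4 larger and 12 smaller. Members near each other in both genotypes included TSC22D3, a leucine zipper mediator of glucocorticoid action, with 4.37 and 4.30, and KLF9 with 4.08 and 3.99. DUSP1, a phosphatase of p38 and other kinases, had 3.18 and 2.91, and the clock gene PER1 2.95 and 2.52, with differences that were not called with all libraries (limma adjusted p = 0.139 and 0.128) and were called without WT-GR Dex library 3 (0.025 and 0.0201). The most positive member was the cell cycle inhibitor CDKN1C at 1.45 ± 1.84 (SE), a value with little precision, and the most negative was FBXO32.

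Each list of adhesion, membrane or matrix genes held 0 to 4 called genes. Of 39 focal adhesion adaptors and actin linkers, TNS4, FAM65C and FGD4 were called with a larger response in S134A-GR cells and LDB3 with a smaller one. The median difference was -0.05. Of 17 integrin subunits 0 were called by limma, edgeR or DESeq2, and 4 had an unadjusted limma p under 0.05, while limma called 2 without WT-GR Dex library 3. The most positive was ITGB6 at 2.16 ± 1.31 (SE) and the most negative ITGB2 at -0.44 ± 0.16. Of 17 caveola and stomatin family genes, SDPR and STON2 had larger and STOM a smaller response in S134A-GR cells, around a median difference of 0.01. Of 24 matrix cross-linking enzymes and proteases, LOX was the most positive member and was called. In that list Dex raised 7 genes with WT-GR and 3 with S134A-GR, where over all genes 13.9% and 7.99% rose. It lowered 6 and 7, where over all genes 14% and 7.76% fell.

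Ligands and receptors came next. Among 22 endothelin, alkaline phosphatase and vasoactive receptor genes, EDN2 and ALPP were called with larger responses in S134A-GR cells and S1PR3 with a smaller one. The most negative was SGPP2, a sphingosine 1-phosphate phosphatase, at -2.89 ± 0.58 (SE), which missed the threshold (limma adjusted p = 0.0575) and passed it without WT-GR Dex library 3 (0.0304). Among 26 cytokine receptors, neuregulins and EGF receptor ligands, IL6R and NRG2 were called with smaller responses in S134A-GR cells. ERBB4 was the most positive at 0.73 ± 0.68. Of 18 genes of BMP signalling, ATOH8 was called and was the most negative, and BMP6 the most positive at 0.85 ± 0.43.

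Metabolic lists held 0 to 3 called genes each. Of the 14 genes of the pyruvate dehydrogenase complex with its kinases and phosphatases 0 were called by limma, edgeR or DESeq2, and 1 had an unadjusted limma p under 0.05. Without WT-GR Dex library 3, DLAT was called (limma adjusted p = 0.0421). Their differences ran from -0.09 for PDK4 to 0.18 for DLAT, a complex subunit, the narrowest range of the 18 lists. This list also had the fewest tested members, and ranges of other lists include imprecise values such as CDKN1C at 1.45 ± 1.84 (SE). Of 27 genes of glycolysis and glucose transport SLC2A14 was called, and PFKL, a phosphofructokinase, was the most negative at -0.27 (limma adjusted p = 0.224, and 0.031 without WT-GR Dex library 3). Of 17 genes of glutamine and nitrogen metabolism GLUL was called, and PPAT, an enzyme of purine synthesis, was the most positive at 0.37 (limma adjusted p = 0.0759, and 0.0297 without that library). Of 26 genes of FOXO, atrophy and insulin signalling, FBXO32, INPP5J and GATSL3 were called with smaller responses in S134A-GR cells and none with a larger one. DEPTOR, an inhibitor of mTOR, was the most negative of them at -1.04 ± 0.26 without a call (limma adjusted p = 0.115, and 0.0429 without that library), and PIK3R1 the most positive at 0.40.

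Receptor machinery and stress signalling held 1 called gene. Of 22 genes for NR3C1, its chaperones and cofactors only FKBP5 was called, and the chaperone PTGES3 was the most positive at 0.33 (limma adjusted p = 0.0695, and 0.0272 without WT-GR Dex library 3). Of 21 genes of the p38 pathway and 14-3-3 proteins 0 were called by limma or edgeR and 3 by DESeq2, and 7 had an unadjusted limma p under 0.05. Without WT-GR Dex library 3 limma called 5 of them, 1 with a larger and 4 with smaller responses in S134A-GR cells. MAP2K6, a kinase that activates p38, was the most negative at -0.89 ± 0.30. YWHAE, a 14-3-3 protein, was the most positive at 2.83 ± 1.47, a value set by single libraries: WT-GR vehicle libraries held 510.0, 560.1 and 11199, and S134A-GR Dex libraries 5882, 540.0 and 518. Of 22 immediate-early genes 0 were called by limma or edgeR and 3 by DESeq2, and 7 had an unadjusted limma p under 0.05, while limma called 6 without WT-GR Dex library 3. EGR1 was the most negative at -0.51 (limma adjusted p = 0.104, and 0.0201 without that library) and EGR3 the most positive at 1.65 ± 1.07. EGR3 counts were at most 15.2 in any library.

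Dex lowered members of 3 further lists, whose counts are read beside the 14% of all genes that fell with WT-GR and the 7.76% that fell with S134A-GR. Of 22 type I interferon genes, 12 fell with WT-GR and 9 with S134A-GR. For the difference 0 were called by limma or edgeR and 2 by DESeq2, with 7 at an unadjusted limma p under 0.05, and limma called 3 without WT-GR Dex library 3. Their extremes were RSAD2 at 1.60 ± 1.56 and OASL at -0.39 (limma adjusted p = 0.0864, and 0.0278 without that library). RSAD2 counts were at most 27.9 in any library. Of 23 DNA replication genes, 16 fell with WT-GR and 8 with S134A-GR, the median difference was 0.12 and CCNE2 was called. The fewer falls with S134A-GR are in about the ratio seen over all genes. Without WT-GR Dex library 3 limma called 4 with larger responses in S134A-GR cells and 1 with a smaller one. CDT1, a licensing factor, was the most negative at -0.23 (limma adjusted p = 0.377, and 0.0498 without that library). Of 20 inflammatory genes known to be repressed by glucocorticoids, 11 fell with WT-GR and 10 with S134A-GR. TNFSF10, the ligand TRAIL, was the most positive at 0.82 ± 0.54 and CXCL2 the most negative at -0.73 (limma adjusted p = 0.168, and 0.049 without that library).

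**Figure D4:**
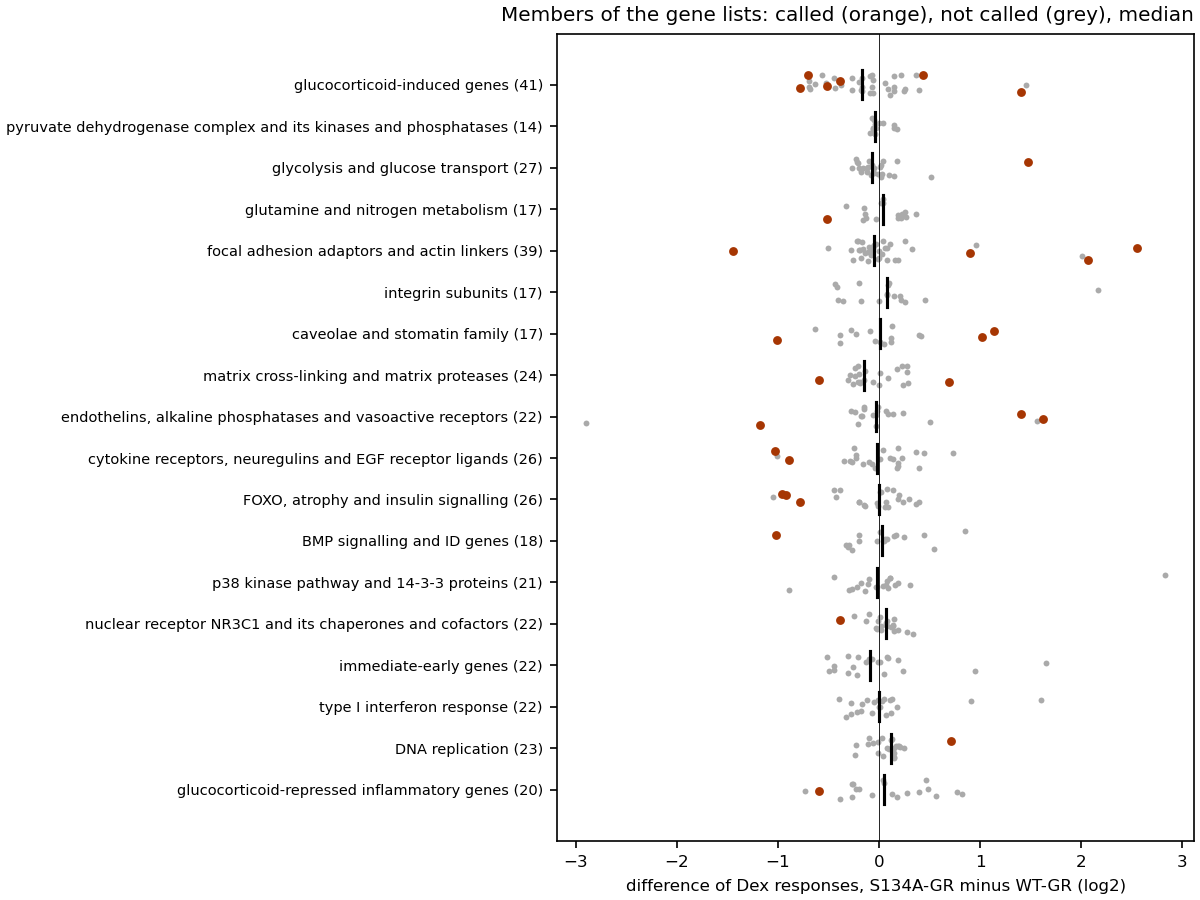
Difference of Dex responses (S134A-GR minus WT-GR, log2, horizontal axis) for the tested members of 18 gene lists, with the number tested in brackets; orange points are called, grey points are not, and black bars are list medians. The medians lie between -0.17 and 0.12, while single called members reach 2.55 (TNS4) and -1.44 (LDB3).

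How firmly each gene was called differed. All 66 kept the sign of their difference in each of 12 fits with a library left out, and 23 were called in all 12, among them TNS4, EDN2, ALPP, SDPR, TBC1D8, LOX, SAMD9L, PLK2, ST3GAL1, ENDOD1, DKK1, GALNT10, F2RL1, SLC20A1, GLUL, DMBT1, KIAA0513, THBD, FBXO32, GATSL3, STOM and GTF2IRD2B. Another 30 were called in 3 to 11 of these fits and 13 in only 1 or 2, among them CCDC138, CCNE2, STON2, FGD4 and ATOH8. With edgeR's quasi-likelihood test on recovered reads 61 genes were called, all of them among the 66, and CCDC138, CCNE2, UBA6, STEAP1 and NUAK1 were not. The strictest setting was limma with a replicate block, which called only 7 genes, all of them among the 66. Most genes called in all 12 fits were not called there, for example EDN2 and DKK1 (limma adjusted p = 0.065 and 0.0701).

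**Figure D5:**
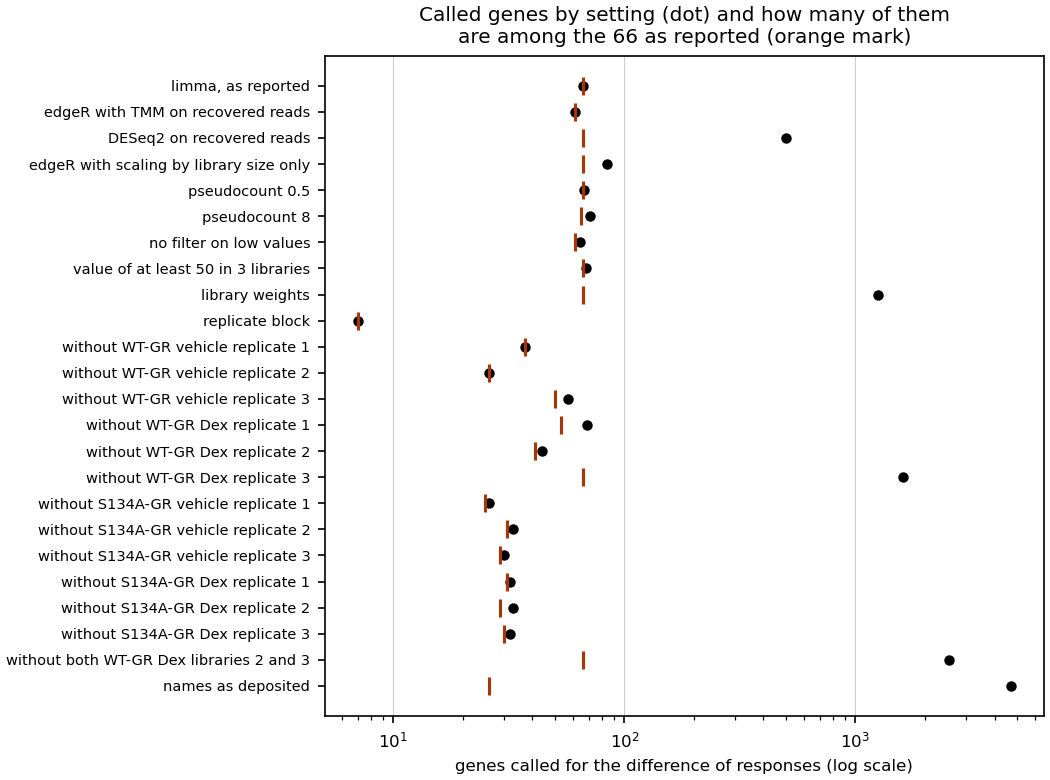
Number of genes called for the difference of responses (horizontal axis, log scale) under each processing setting (black dots), and how many of them are among the 66 (orange marks). Without WT-GR Dex library 3 the count is 1604 and holds all 66, whereas leaving out a vehicle or S134A-GR library gives 26 to 57.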

How the data were processed

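RNA was measured by poly(A) sequencing in 12 libraries, 3 in each of 4 groups, and samples were grouped by the genotype and treatment the labels give. The submitters' processing notes list FastQC 0.11.7, featureCounts (Subread), DESeq2 1.22.2 and the hg38 build. The aligner and the gene annotation used for counting are not given there. The values the authors deposited are a normalized signal: reads per gene over a library's size factor. This was read from the values, 100% of which were whole multiples of a step within 0.01 reads. The authors' counting left 58.2 to 67.5% of counts from 1 to 20 even, so independent fragments may be fewer than the 56.4 to 100.6 M reads recovered.

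Dex files list 26485 names for 19907 values, and 8 lines carry the same name as vehicle. Across genes, correlation of Dex libraries with mean vehicle levels was r = 0.982 to 0.989 by line and -0.006 to -0.004 by the 14926 shared names, so vehicle names were applied by line order.

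The test was limma 3.58.1 (R 4.3.3) on log2(value + 1), with the variance trended on the mean, 1 coefficient per group over all 12 libraries, two-sided, Benjamini-Hochberg adjusted over 15957 genes at 0.05. edgeR 4.0.16 and DESeq2 1.42.0 on recovered reads were alternatives, as were other pseudocounts, filters, library weights, left-out libraries, a replicate block and the names as deposited. The fit was tested on simulated data with 50 changed genes at each fold. It recovered 52% at 1.5-fold, 82% at 2-fold, 94% at 4-fold and 98% at 8-fold, with 13 false calls. The simulation gave all groups the same spread of a gene, whereas the WT-GR Dex group here had the largest spread. Its changed genes were drawn only from those above a minimum mean value, so recovery at lower values was not tested. Replicate numbers come from the titles, no label says that they mark a shared culture or day, and the pairing check is given with the alternatives. No 2 libraries of the same group were duplicates, and libraries of different groups were not compared in this way.

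Members and gene lists were chosen with earlier results of these data known. The 15 most positive and 15 most negative called genes are described in full, other called genes by their difference, PDK4 and NR3C1 always, and each list's extremes by name; 1 called gene is not reported here but stays in the counts. Genes said to be chosen after their values were seen fall outside this rule. Coordinates and promoters are from RefSeq (GRCh38.p14), which held all 66 called genes by symbol or older symbol.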

Additional observations from a re-analysis of the deposited data

Results flagged for a closer look

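Of the 66 genes called for the difference of responses, 65 are listed because the test of the difference itself, between the Dex effects in the 2 genotypes, was past the threshold. Each value is an adjusted p of limma over 15957 genes with 3 libraries per group, and the sizes and per-library values stand above. For genes that Dex lowered in WT-GR and raised in S134A-GR cells, limma gave adjusted p-values of TNS4 4.53e-06, ST3GAL1 0.00119 and ATP1B1 0.028. For those raised in WT-GR and lowered in S134A-GR cells, limma gave FBXO32 0.000431, GTF2IRD2B 0.013 and CYTH4 0.0253. Among larger rises in S134A-GR cells, the adjusted p-values of limma were SDPR 4.53e-06, TBC1D8 0.000315, LOX 0.000677, DKK1 0.00244, EDN2 0.00309, GALNT10 0.00564, ALPP 0.00599, ENDOD1 0.00635, EPB41L4B 0.013, ERRFI1 0.013, ENAH 0.0132, SLC35D1 0.0243, CTDSPL 0.0256, FAM20C 0.0293, PLIN2 0.0293, FLVCR2 0.0299, UST 0.0333, ABHD5 0.0345, FGD4 0.0361 and STON2 0.0445. With a rise called in S134A-GR cells only, limma gave SLC20A1 0.00309, LYPD6 0.022, SLC2A14 0.0256 and NUAK1 0.0341. With a fall called in WT-GR cells only, limma gave F2RL1 0.00635, FAM65C 0.0144, PFDN4 0.0253, TRIB2 0.0256, GPR89A 0.033, CCDC138 0.0412, UBA6 0.0445 and STEAP1 0.0497. Falls that were smaller in S134A-GR cells had limma adjusted p-values of PLK2 0.00599, SAMD9L 0.0069 and CCNE2 0.0445. Smaller rises in S134A-GR cells had limma adjusted p-values of STOM 0.000158, GLUL 0.000499, KIAA0513 0.00635, GATSL3 0.00635, DMBT1 0.00774, FKBP5 0.023, ADRA1B 0.0251, LDB3 0.0256, ARRDC2 0.0305, GPR153 0.0328, ATOH8 0.033 and RPS6KA2 0.0397. A rise called in WT-GR cells only went with limma adjusted p-values of IL6R 0.022, AKR1C1 0.0243, GSN 0.0256 and S1PR3 0.0328. A fall called in S134A-GR cells only went with limma adjusted p-values of THBD 0.00244 and INPP5J 0.0267. Larger falls in S134A-GR cells had limma adjusted p-values of ABHD4 0.013, NRG2 0.0158, MISP 0.0216, SPSB1 0.0253, GRK5 0.0253 and CSF1R 0.0256.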

How the results depend on the processing

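The 66 genes called by limma kept their direction under each alternative run except the names as deposited. edgeR with TMM (61 genes), edgeR scaled by library size (84), pseudocounts of 0.5 and 8 (67 and 71), no filter (64) and a minimum value of 50 (68) stayed within 1.5 times the count. DESeq2 called 502 genes and library weights 1256, against 5043 with weights for Dex in S134A-GR cells. Without 1 library each the difference gave 26 to 1604 genes (1604 without WT-GR Dex replicate 3, 26 without WT-GR vehicle replicate 2 or S134A-GR vehicle replicate 1), Dex in WT-GR cells 2963 to 6094 and in S134A-GR cells 1798 to 3045, and without WT-GR Dex replicates 2 and 3, a choice made with earlier results known, the difference gave 2550. With a replicate block 7 genes were called for the difference (among them TNS4, SDPR, TBC1D8, LOX, FBXO32 and STOM). Deviations of same-numbered libraries from their group means correlated at -0.034 to 0.051, and not every library correlated best with its own number. Such correlations cannot tell whether a number marks a shared culture or day, so the block remains a possible setting. Among the 66 called genes, PDK4, NR3C1 and each list's most positive and most negative member, only CDKN1C changed sign when 1 library was left out, with a range of -0.29 (without WT-GR vehicle replicate 2) to 3.04. With the names as deposited, which pair most values with another gene's name, 4718 genes were called for the difference, 13578 for the WT-GR and 13549 for the S134A-GR response, and these differences changed sign: FLVCR2 -0.56, LYPD6 -0.071, SAMD9L -0.047, UBA6 -1.33, PLK2 -0.052, ST3GAL1 -0.15, UST -0.16, DKK1 -0.038, STEAP1 -0.75, SLC20A1 -0.26, ENAH -0.16, NUAK1 -0.71, ARRDC2 0.27, SPSB1 0.087, GSN 0.25, GLUL 0.58, GPR153 0.60, RPS6KA2 0.74, MISP 1.00, CYTH4 0.15, INPP5J 2.67, STOM 1.90, S1PR3 2.37, PDK4 1.21, CDT1 0.21, EGR1 0.014, EGR3 -0.073, ITGB2 2.79, ITGB6 -0.50, MAP2K6 1.06, OASL 0.15, PFKL 1.60, PIK3R1 -0.20 and SGPP2 1.19. Some values, such as those of FAM65C in S134A-GR cells, rest on few reads. The causes of the shifts between settings were not tested.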

Other observations

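Some abundant genes differed by more than 10-fold between libraries of 1 group, a list made after the values were seen. There were 24 such genes with a highest value of at least 1000. Of these, 0 were called for the difference by limma, edgeR or DESeq2, and 1 had an unadjusted limma p under 0.05. Over all genes tested limma called 0.414% and DESeq2 3.15%, and 17.5% had an unadjusted limma p under 0.05. The genes were picked for a wide spread within a group, which by itself makes a call unlikely. DESeq2 gave no adjusted p for YWHAE, which is among them. Nothing is therefore read from these counts. RPS18, a ribosomal protein gene, ran from 577 to 7421 in WT-GR Dex and from 456 to 31286 in S134A-GR Dex, and its difference was -5.06 ± 1.90 (SE). CUTA ran from 96.2 to 5152 in WT-GR vehicle, with a difference of 2.96 ± 1.76 (SE). PSMB3, a proteasome subunit gene, was uneven in all 4 groups, from 138 to 3285 in WT-GR vehicle and from 173 to 3984 in S134A-GR vehicle. EEF1D, a translation elongation factor gene, was also uneven in all 4 groups.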
